A study of Mus musculus with 20 samples.

Results

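The 10 genes described here encode secreted signals of inflammation: the CXC chemokines Cxcl1, Cxcl5, Cxcl12 and Cxcl14, the CC chemokines Ccl2, Ccl7 and Ccl11, the IL-6 family cytokines Il6 and Lif, and the macrophage growth factor Csf1. They were chosen by name. All 10 were among the 24393 genes of the count table, and all 10 passed the filter on low counts that 14179 genes passed.

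Chemokines are small secreted proteins that bind G protein-coupled receptors and steer the movement of leukocytes, and a few of them also hold stem cells in place. IL-6 family cytokines act through receptor complexes that share the signalling subunit encoded by Il6st and activate JAK kinases and STAT3. In injured muscle these signals recruit neutrophils, monocytes and eosinophils and act on satellite cells, the stem cells of the muscle fibre, and connective tissue cells are among their known sources.

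RNA was sequenced from 20 libraries of 3 cell populations of mouse leg muscle (quadriceps, tibialis anterior and gastrocnemius) under the conditions DKO and WT, in a study of matrix expression in fibrotic muscle. FAP and Misc had 4 libraries per condition and SMP had 2, with 5826000 to 17730111 counts per library. FAP is a usual abbreviation for fibro/adipogenic progenitors, and the labels do not spell out SMP. The sample labels call the remaining population Misc where the design text has FB, and no label links these names. The sources used here do not state the genes deleted in DKO, the age or strain of the mice, the sorting of the cells, or any pooling of animals. From background, DKO was read as loss of desmin (Des) and nesprin (Syne1). Des was at 3.43 to 5.33 CPM in the FAP DKO libraries, against 14.2 to 18.3 in those of FAP WT, and at 54.2 and 75.4 CPM in the SMP DKO libraries, against 171 and 184 in those of SMP WT. In Misc it was at 1.37 to 2.27 CPM in DKO against 2.16 to 4.74 in WT, which overlapped. Syne1 was at 37.8 to 55.3 CPM in the FAP DKO libraries, against 52.7 to 59.8 in those of FAP WT, which overlapped, while its ranges lay lower in DKO with no overlap in Misc and SMP. Counts over a whole gene can include exons outside a deleted stretch. CPM are counts per 1e6 counts of a library after TMM scaling.

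The populations largely carried the markers of their names, and SMP also had the highest sums of pericyte and Schwann cell markers, given below. Pdgfra, a receptor that marks FAPs, was at 935 to 1343 CPM over the FAP libraries. Pax7, which marks satellite cells, was at 100.2 and 125 CPM in the SMP DKO libraries, against 262 and 271 in those of SMP WT. Myod1, a myogenic factor, was at 338 and 353 CPM in SMP DKO, against 132 and 140.3 in SMP WT. Of the 8 satellite cell and myogenic markers, 1 was called higher and 2 lower in SMP DKO, where 23.0% of all genes were called. Misc carried tendon cell markers, summing to 46889.5 to 69103 CPM for 5 genes against 591 to 4829.7 in FAP. Of the FAP markers it carried mainly Dcn, which averaged 20210.0 CPM in Misc WT and 17549 in FAP WT. In each genotype 4 of the 6 FAP markers were called higher in FAP than in Misc, and none lower. In WT, Pdgfra averaged 449.8 CPM in Misc and 1210.3 in FAP, and Ly6a 5.47 in Misc and 612 in FAP. SMP DKO replicate 2 stood apart from its group. The 11 leukocyte markers in the table summed to 377 CPM there, against 35.6 in SMP DKO replicate 1 and 30.1 and 23.6 in SMP WT. The 6 FAP markers summed to 3199.8 CPM there, against 765 in replicate 1 and 1419.8 and 1624 in SMP WT, and the 8 endothelial markers to 636 CPM, against 117 in replicate 1 and 318 and 238 in SMP WT. Among defining leukocyte genes, Adgre1 and Itgam had no count in SMP DKO replicate 1 or in SMP WT, and Cd3e had no count in any library. Called differences that rest on SMP DKO are therefore given with and without this library, and fits that leave it out, or leave out replicate 1, hold a lone SMP DKO library that is assumed to vary like the other groups. In bulk libraries such as these, fewer cells of a type and less RNA per cell cannot be told apart.

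Of the 10 genes, 6 had an entry in the RefSeq promoter table of GRCm38.p6 (Cxcl1, Cxcl12, Cxcl14, Il6, Lif and Csf1). The 250 bases before the start of 4 of them are shown, 3 because they hold a match to the NF-kB motif (kappaB) and Cxcl12 because it holds no match to any motif searched. Capitals mark motif matches.
Cxcl1 (chr5:90890995-90891244, plus strand): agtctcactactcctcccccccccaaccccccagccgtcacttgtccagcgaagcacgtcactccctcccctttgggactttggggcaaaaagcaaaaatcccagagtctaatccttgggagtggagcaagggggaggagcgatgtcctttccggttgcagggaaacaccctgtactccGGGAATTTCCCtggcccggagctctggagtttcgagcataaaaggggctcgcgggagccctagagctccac
Il6 (chr5:30012864-30013113, plus strand): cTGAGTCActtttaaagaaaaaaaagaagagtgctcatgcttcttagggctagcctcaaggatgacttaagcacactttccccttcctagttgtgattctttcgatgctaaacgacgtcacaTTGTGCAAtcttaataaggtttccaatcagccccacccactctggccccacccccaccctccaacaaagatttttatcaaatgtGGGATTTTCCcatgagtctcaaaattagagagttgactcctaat
Csf1 (chr3:107760470-107760719, minus strand): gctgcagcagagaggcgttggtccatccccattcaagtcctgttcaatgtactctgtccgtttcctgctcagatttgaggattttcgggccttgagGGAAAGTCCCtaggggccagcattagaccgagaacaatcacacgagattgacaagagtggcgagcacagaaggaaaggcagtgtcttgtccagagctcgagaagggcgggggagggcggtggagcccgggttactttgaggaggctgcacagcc
Cxcl12 (chr6:117168285-117168534, plus strand): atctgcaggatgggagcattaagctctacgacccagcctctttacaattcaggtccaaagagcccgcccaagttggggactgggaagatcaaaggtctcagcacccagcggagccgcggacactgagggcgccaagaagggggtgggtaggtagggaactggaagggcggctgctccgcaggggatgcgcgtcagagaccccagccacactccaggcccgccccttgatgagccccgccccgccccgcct
In Cxcl1 the capitals are 2 overlapping kappaB matches, at bases −71 to −62 and −70 to −61 from the start. In Il6 they are, from the far end, an AP-1 match at −249 to −243, a C/EBP match at −128 to −121 and a kappaB match at −44 to −35. In Csf1 they are a kappaB match at −154 to −145. Both strands were searched for kappaB, AP-1 (TGANTCA), C/EBP (TTNNGCAA), CRE (TGACGTCA), STAT (TTCNNNGAA) and the TATA box (TATAAA). The kappaB motif was in 3 of the 6 windows and in 3.75% of 27025 promoters of the same length. AP-1 was in the windows of Il6 and Lif and in 6.87% of promoters, C/EBP in that of Il6 and in 9.55%, and STAT in that of Cxcl14, whose entry does not begin at the gene's annotated start, and in 7.18%. CRE and TATA matches were in 0 of the 6 windows and in 1.62% and 13.0% of promoters. A match of letters is a description of the sequence and not a measured site.

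Across populations, most of the 10 genes were highest in FAP, lower in Misc and lowest in SMP. Comparisons are edgeR quasi-likelihood tests in 1 fit of all groups, with p adjusted by Benjamini-Hochberg over 14179 genes and a gene called at an adjusted p below 0.05. Values after ± are SE for log2 differences and SD for levels. Between FAP and Misc, 8 of 10 were higher in FAP in DKO and 7 of 10 in WT, where 16.0% and 19.3% of all genes tested were. Against SMP, all 10 were higher in FAP DKO (29.2% of all genes) and 9 of 10 in FAP WT (31.1%), and 7 of 10 were higher in Misc DKO (29.8%) and 6 of 10 in Misc WT (30.6%). Without SMP DKO replicate 2, 9 of 10 were higher in FAP DKO (26.3% of all genes) and 8 of 10 in Misc DKO (26.8%), and without SMP DKO replicate 1, 8 of 10 (22.3%) and 3 of 10 (22.8%). Their median log2 difference between FAP and Misc was 1.31 in DKO and 1.00 in WT, against −0.02 and 0.01 over all genes. Between FAP and SMP it was 2.50 in DKO and 2.78 in WT, against 0.00 and −0.02 over all genes. Between Misc and SMP it was 1.07 in DKO and 1.54 in WT, against 0.03 in each over all genes. Without SMP DKO replicate 2 the DKO medians over SMP were 3.55 for FAP and 2.00 for Misc, and without replicate 1 they were 2.01 and 0.63. The difference of FAP over SMP ran from 1.33 ± 0.35 for Lif to 3.70 ± 0.49 for Cxcl14 in DKO, from 1.69 ± 0.48 to 5.31 ± 0.41 for the same genes without SMP DKO replicate 2, and from 1.06 ± 0.46 to 2.97 ± 0.35 without replicate 1. In WT it ran, among the 9 called, from 1.04 ± 0.34 for Lif to 5.30 ± 0.54 for Cxcl14, with Ccl11 18.2-fold higher in FAP. Cxcl14 departed from this order, with its highest levels in Misc WT.

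**Figure D1:**
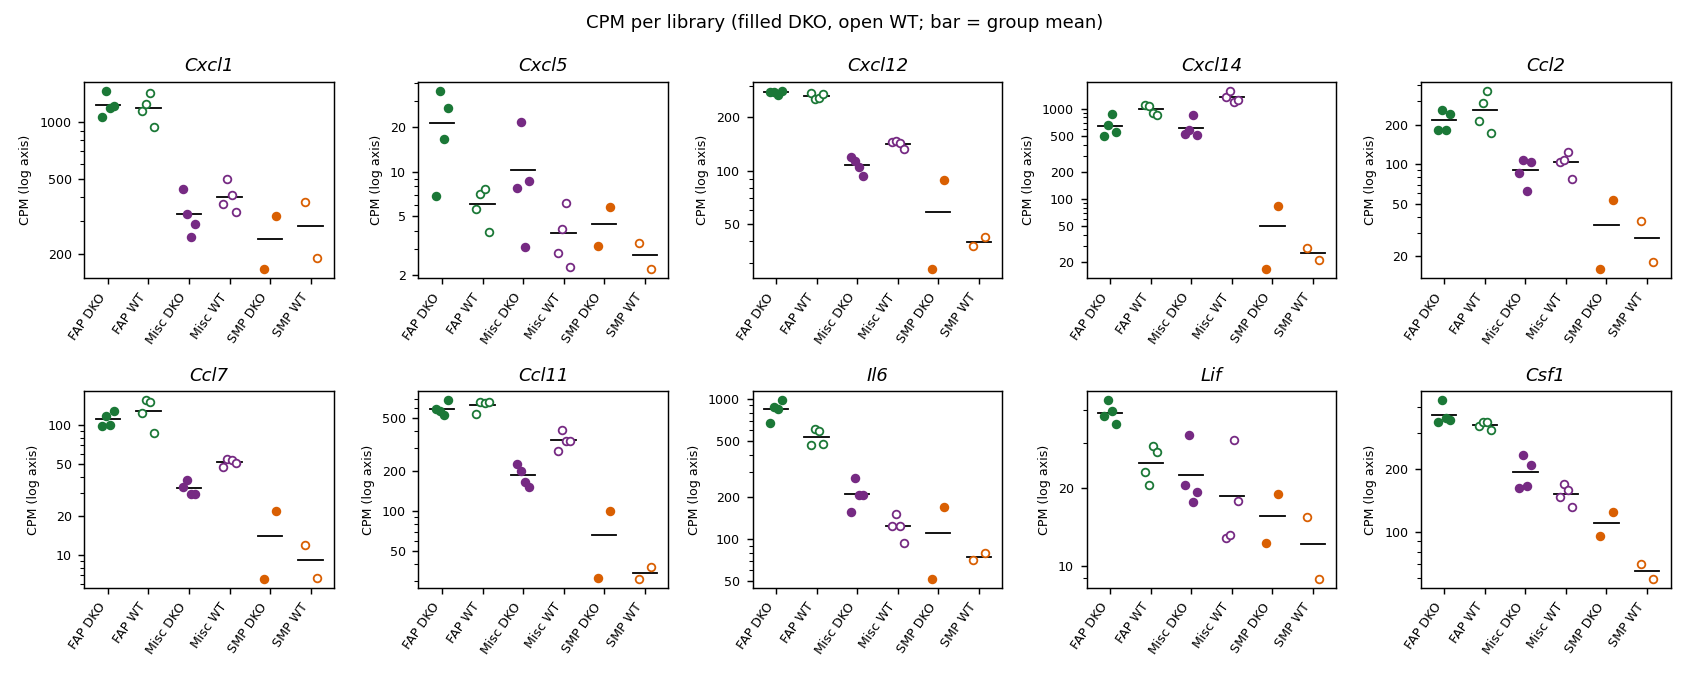
Levels of the 10 genes in each library, in CPM on a log axis, with 1 panel per gene and the groups along the horizontal axis. Filled points are DKO, open points WT, and bars are group means. Il6 lies higher in all 4 FAP DKO libraries (670.5 to 979.8 CPM) than in FAP WT (469 to 608 CPM), and the 2 SMP DKO libraries lie far apart for most genes.

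Between genotypes, 1 or 2 of the 10 genes passed the test in each population. In FAP, Cxcl5 rose in DKO and the other 9 did not pass, where 10.7% of all genes tested passed in either direction and 5.58% were higher. In Misc, Cxcl14 and Ccl11 fell in DKO and the other 8 did not pass, where 18.7% of all genes passed and 9.55% were lower. In SMP, Csf1 rose in DKO and the other 9 did not pass, where 23.0% of all genes passed and 11.8% were higher. The called shares in FAP and Misc were near those of all genes. At an unadjusted p below 0.05, 3 of the 10 were higher and 0 lower in FAP, 3 higher and 3 lower in Misc, and 2 higher and 0 lower in SMP. The share of all genes at this threshold was not computed, so these counts cannot be read as particular to the 10. The median log2 change of the 10 was 0.06 in FAP, −0.25 in Misc and 0.58 in SMP, against −0.01, 0.01 and 0.01 over all genes.

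These counts depended on which libraries were in the fit. In a fit of the 16 FAP and Misc libraries alone, 2 of the 10 were higher and 1 lower in FAP DKO (14.6% of all genes tested passed), and 2 were higher and 4 lower in Misc DKO (22.9%). Without SMP DKO replicate 2, the SMP comparison had 0 higher and 1 lower in place of 1 higher (15.2% of all genes passed). Groups did not overlap for 2 of the 10 genes in FAP (19.2% of all genes), 5 of 10 in Misc (21.2%) and 1 of 10 in SMP (55.7%).

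Summed markers of other cells also differed in range between genotypes. Counts of markers called are to be read beside the 10.7% of all genes tested that passed in FAP, 18.7% in Misc and 23.0% in SMP. In Misc, most of the difference in each of the endothelial, pericyte and Schwann cell sums lay in 1 gene, given below. In FAP, most of the endothelial difference lay in Tek. The 5 tendon cell markers summed to 2961 to 4829.7 CPM in the FAP DKO libraries, against 591 to 801 in those of FAP WT, and 2 of the 5 were higher by the test. The 8 endothelial markers summed to 145 to 249 CPM in the FAP DKO libraries, against 310.5 to 400.1 in those of FAP WT, and to 48.0 to 81.9 in Misc DKO against 90.9 to 127 in Misc WT. In each population 1 of the 8 was called lower, Tek, an angiopoietin receptor, which averaged 138 ± 25.9 CPM in FAP DKO and 277 ± 8.51 in FAP WT (SD, n = 4 each), and 24.8 ± 3.85 in Misc DKO and 63.9 ± 8.35 in Misc WT. Kdr, a VEGF receptor in that list, averaged 14.2 ± 8.49 CPM in FAP DKO and 7.22 ± 4.15 in FAP WT.

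The 6 pericyte and smooth muscle markers summed to 47.8 to 68.2 CPM in the Misc DKO libraries, against 104 to 135 in those of Misc WT, and to 60.2 to 114 in FAP DKO against 108 to 178 in FAP WT. In each population 1 of the 6 was called lower, Cspg4, which encodes the proteoglycan NG2, at 36.7 ± 5.76 CPM in Misc DKO and 88.0 ± 9.69 in Misc WT. The 5 Schwann cell markers summed to 7.64 to 14.7 CPM in the Misc DKO libraries, against 30.5 to 37.6 in those of Misc WT, and to 8.13 to 21.5 in FAP DKO against 20.4 to 46.1 in FAP WT. Again 1 of the 5 was called lower in each of FAP and Misc, the cadherin gene Cdh19, at 4.36 ± 1.89 CPM in Misc DKO and 21.7 ± 1.13 in Misc WT. The 6 FAP markers summed to 15197 to 16925 CPM in the Misc DKO libraries, against 20966 to 21814 in those of Misc WT. Most of that sum was Dcn, which encodes decorin, at 15199 ± 726 CPM in Misc DKO and 20210.0 ± 351 in Misc WT (log2 change −0.41 ± 0.24, adjusted p = 0.27). The 1 FAP marker called in Misc went the other way, since Pi16 rose to 306 ± 52.5 CPM in Misc DKO, against 43.6 ± 13.5 in Misc WT (2.82 ± 0.50, adjusted p = 0.0012).

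The leukocyte sum was 25.8 to 64.5 CPM in the FAP DKO libraries, against 13.5 to 28.9 in those of FAP WT. Within it, Cd68 averaged 19.4 ± 3.52 CPM in FAP DKO and 9.06 ± 1.65 in FAP WT, and Lyz2 8.64 ± 11.8 and 2.58 ± 3.93. Ptprc, by contrast, averaged 0.482 ± 0.863 CPM in FAP DKO and 0.496 ± 0.874 in FAP WT, and Cd14 3.03 ± 1.69 and 3.87 ± 0.689. Replicate 1 stood apart in both FAP groups, at 64.5 CPM in DKO (25.8 to 31.5 in the others) and 28.9 in WT (13.5 to 17.3). In Misc the sum was 16.4 to 31.6 CPM in DKO against 16.4 to 27.8 in WT. Of the 9 leukocyte markers tested, 1 was higher in DKO in each of FAP and Misc. Of all genes tested, 10.7% passed in either direction in FAP, 18.7% in Misc and 23.0% in SMP. Immediate early genes, which cell handling is known to induce, had 1 higher and 6 lower of 14 in FAP DKO, 2 higher and 5 lower in Misc DKO, and 10 lower in SMP DKO. They summed to 37623 to 48128 CPM in the FAP DKO libraries, against 37989 to 40584 in those of FAP WT, to 43561 to 56594 in Misc DKO against 40427 to 49027 in Misc WT, and to 36921 and 42117 in SMP DKO against 71322 and 61614 in SMP WT. The part of these shifts in the results below was not tested.

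**Figure D2:**
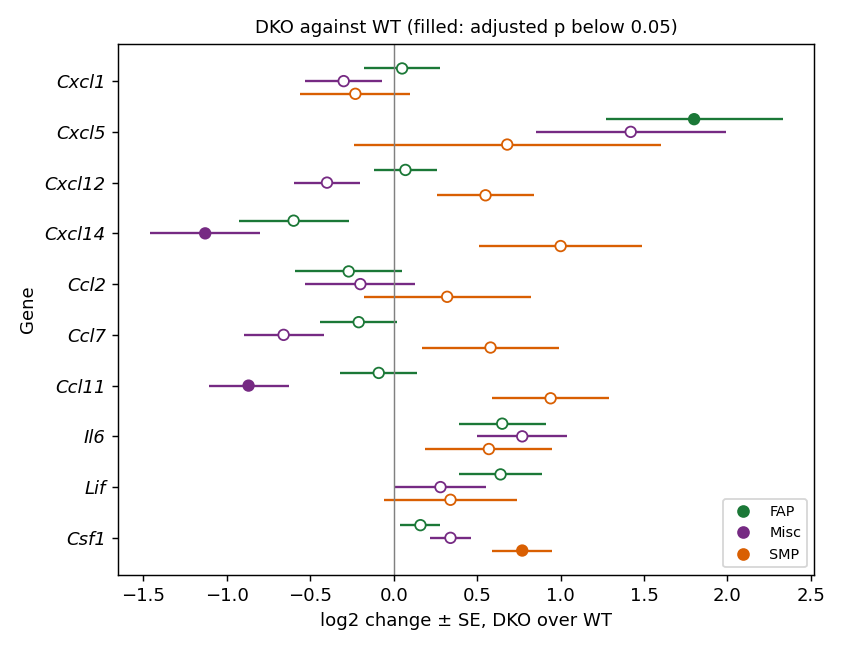
Log2 change of each gene in DKO over WT (horizontal axis) with its SE, in FAP, Misc and SMP. Filled points passed at an adjusted p below 0.05: Cxcl5 in FAP at 1.80, Cxcl14 and Ccl11 in Misc at −1.13 and −0.87, and Csf1 in SMP at 0.77.

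Among the neutrophil attractants, Cxcl1 differed between FAP and the other populations, and Cxcl5 between genotypes in FAP. Cxcl1 (Entrez 14825; chromosome 5, 90891245 to 90893121, GRCm38.p6) encodes a ligand of the receptor CXCR2. Its levels were 1058, 1461, 1189.6 and 1211 CPM in the FAP DKO libraries, against 1137, 1237, 1423 and 944 in those of FAP WT. In Misc they were 442, 327, 246 and 289 CPM under DKO, against 366, 497, 409 and 332 under WT. In SMP they were 166 and 317 CPM under DKO, against 376 and 190.1 under WT. Genotypes overlapped in every population, and every FAP library lay above every Misc and SMP library. The log2 change in DKO was 0.05 ± 0.23 in FAP (95% interval −0.40 to 0.51, adjusted p = 0.92), −0.30 ± 0.23 in Misc (−0.76 to 0.16, adjusted p = 0.42) and −0.23 ± 0.33 in SMP (−0.88 to 0.42, adjusted p = 0.66). FAP exceeded Misc by 1.92 ± 0.24 in DKO (adjusted p = 4.8e-06) and 1.56 ± 0.24 in WT (adjusted p = 3.4e-05), and SMP by 2.35 ± 0.32 in DKO (adjusted p = 6.4e-06, and 2.90 with adjusted p = 1.4e-05 without SMP DKO replicate 2) and 2.06 ± 0.31 in WT (adjusted p = 1.8e-05). Misc and SMP did not pass in either genotype (adjusted p = 0.21 in DKO and 0.15 in WT), although Misc passed above SMP in DKO without SMP DKO replicate 2 (0.98, adjusted p = 0.03) and in WT without SMP WT replicate 1 (1.09, adjusted p = 0.011).

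Cxcl5 (Entrez 20311; chromosome 5, 90759298 to 90761625) encodes another attractant of neutrophils through CXCR2 and was among the scarcest of the 10 per kb of transcript. It had 6.81, 35.3, 16.7 and 26.8 CPM in the FAP DKO libraries, against 5.57, 7.09, 7.68 and 3.90 in those of FAP WT. In Misc it had 7.72, 21.7, 3.12 and 8.68 CPM under DKO, against 2.83, 4.10, 6.19 and 2.27 under WT, and in SMP 3.16 and 5.78 CPM under DKO, against 3.32 and 2.19 under WT. In FAP, 3 DKO libraries lay above all WT libraries and replicate 1 lay among them. The rise in FAP was 3.47-fold (log2 1.80 ± 0.53, adjusted p = 0.041). It held without FAP DKO replicate 1 (2.10, adjusted p = 0.01), but not without any other FAP library, where the adjusted p was 0.13 and 0.053 without DKO replicates 2 and 3, 0.11 without DKO replicate 4, and 0.11, 0.078, 0.065 and 0.11 without WT replicates 1 to 4. In Misc the change was 1.42 ± 0.57 (adjusted p = 0.1), and 1.72 without Misc DKO replicate 3 (adjusted p = 0.039), and in SMP it was 0.68 ± 0.92 (adjusted p = 0.64). FAP exceeded SMP in DKO by 2.25 ± 0.75 (adjusted p = 0.018), which did not pass without SMP DKO replicate 1 (1.88, adjusted p = 0.15) or replicate 2 (2.74, adjusted p = 0.051). FAP over Misc in DKO was 1.03 ± 0.52 (adjusted p = 0.16), and 1.10 ± 0.32 with the replicate numbers as a block (adjusted p = 0.02), the numbers being treated as pairs of FAP and Misc.

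Cxcl12 and Cxcl14 are chemokines made in resting tissue. Cxcl12 (Entrez 20315; chromosome 6, 117168535 to 117181368) signals through CXCR4 and is known to retain stem cells. It stood at 279, 279, 267 and 282 CPM in the FAP DKO libraries, against 275, 255, 258 and 269 in those of FAP WT, which overlapped. In Misc it stood at 119, 113, 105 and 93.9 CPM under DKO, against 145, 147, 143 and 133 under WT, so that all DKO libraries lay below all WT libraries. In SMP it stood at 27.8 and 89.0 CPM under DKO, against 37.4 and 42.1 under WT, with the DKO libraries on either side of both WT libraries. The log2 change in DKO was 0.07 ± 0.19 in FAP (95% interval −0.31 to 0.45, adjusted p = 0.87) and −0.40 ± 0.20 in Misc (adjusted p = 0.18). In the fit of FAP and Misc libraries alone the SE in Misc was 0.08 and the change −0.41 passed (adjusted p = 8e-04). In SMP it was 0.55 ± 0.29 (adjusted p = 0.18), and −0.52 without DKO replicate 2 (adjusted p = 0.028) but 1.15 without DKO replicate 1 (adjusted p = 3.8e-06). FAP exceeded Misc by 1.36 ± 0.20 in DKO (adjusted p = 2.7e-05) and 0.89 ± 0.20 in WT (adjusted p = 0.0012). Misc exceeded SMP by 0.89 ± 0.26 in DKO (adjusted p = 0.0063) and 1.84 ± 0.27 in WT (adjusted p = 9.3e-06). The DKO difference was 1.97 without SMP DKO replicate 2 (adjusted p = 1.2e-10) and 0.29 without replicate 1 (adjusted p = 0.078).

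Cxcl14 (Entrez 57266; chromosome 13, 56288643 to 56296811) encodes a chemokine for which several receptors have been proposed. Its levels were 495, 664, 871 and 552 CPM in the FAP DKO libraries, against 1109, 1069.5, 893 and 847 in those of FAP WT, where only DKO replicate 3 reached the WT range. In Misc they were 522, 576, 841 and 516 CPM under DKO, against 1357, 1579, 1194 and 1235 under WT, with no overlap. In SMP they were 16.5 and 83.6 CPM under DKO, against 28.4 and 21.2 under WT. The fall in Misc was 2.19-fold (log2 −1.13 ± 0.33, adjusted p = 0.025), and −1.14 ± 0.17 in the fit of FAP and Misc libraries alone (adjusted p = 7.7e-05). In the fit of all groups it did not pass without Misc DKO replicate 1 (adjusted p = 0.058), 2 (0.066) or 4 (0.062) or Misc WT replicate 2 (0.058). In FAP the change was −0.60 ± 0.33 (adjusted p = 0.27), and −0.59 ± 0.17 in the fit of FAP and Misc libraries alone (adjusted p = 0.025). In SMP it was 1.00 ± 0.49 (adjusted p = 0.16), 1.73 without DKO replicate 1 (adjusted p = 0.00068) and −0.60 without DKO replicate 2 (adjusted p = 0.28). Between FAP and Misc, the DKO difference was 0.07 ± 0.32 (95% interval −0.56 to 0.71, adjusted p = 0.9). In WT, every FAP WT library lay below every Misc WT library (−0.45 ± 0.32, adjusted p = 0.31, and −0.48 ± 0.17 with adjusted p = 0.029 without the SMP libraries). Against SMP, Misc was 12.3-fold higher in DKO (3.62 ± 0.49, adjusted p = 1.2e-05) and 54.0-fold higher in WT (5.76 ± 0.55, adjusted p = 2.1e-07). The DKO fold was 37.5 without SMP DKO replicate 2 (5.23 ± 0.41, adjusted p = 2.5e-09) and 7.46 without replicate 1 (2.90 ± 0.34, adjusted p = 1.3e-06).

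**Figure D3:**
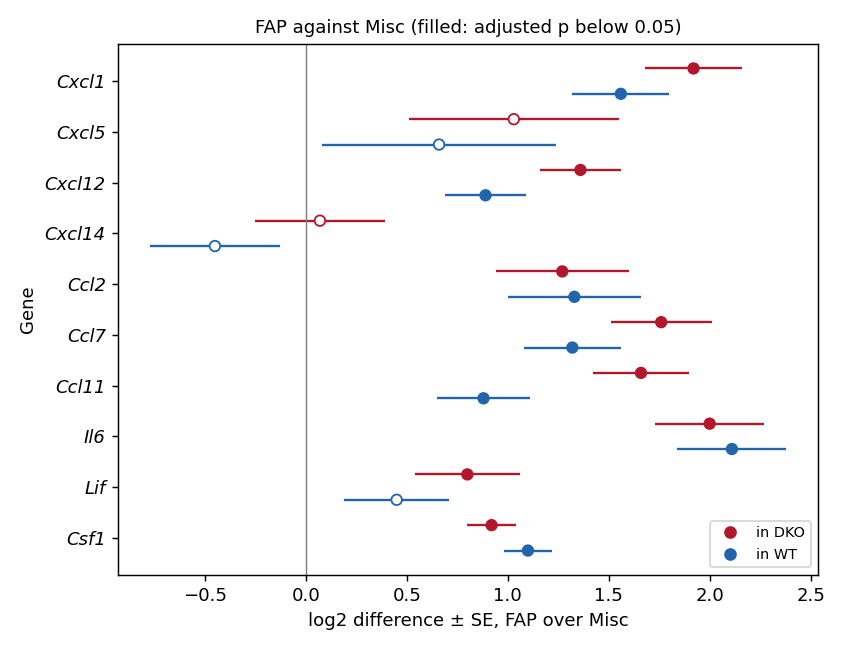
Log2 difference of FAP over Misc for each gene (horizontal axis) with its SE, in DKO and in WT. Filled points passed at an adjusted p below 0.05. All estimates but that of Cxcl14 in WT (−0.45) lie above 0, and Il6 lies highest, at 2.00 in DKO and 2.11 in WT.

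The CC chemokines Ccl2, Ccl7 and Ccl11 lie next to each other on chromosome 11, within 27.4 kb that hold 3 RefSeq coding genes. Ccl2 (Entrez 20296; 82035577 to 82037452) and Ccl7 (Entrez 20306; 82045712 to 82047525) encode monocyte attractants that act through CCR2. Ccl11 (Entrez 20292; 82057832 to 82062955) encodes eotaxin, an eosinophil attractant that acts through CCR3. All of them were higher in FAP than in Misc and in Misc than in SMP, in both genotypes.

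Ccl2 had 183, 259.9, 181 and 240.2 CPM in the FAP DKO libraries, against 212, 293, 361 and 171 in those of FAP WT. Its Misc levels were 86.1, 107, 62.4 and 103 CPM under DKO, against 103, 108, 124 and 77.7 under WT, and those in SMP 15.9 and 53.0 CPM under DKO, against 36.8 and 18.1 under WT. Genotypes overlapped in each population. The log2 change in DKO was −0.27 ± 0.32 in FAP (95% interval −0.90 to 0.36, adjusted p = 0.67), −0.20 ± 0.33 in Misc (−0.85 to 0.44, adjusted p = 0.72) and 0.32 ± 0.50 in SMP (adjusted p = 0.69), and in SMP −0.80 without DKO replicate 2 (adjusted p = 0.36). FAP exceeded Misc by 1.27 ± 0.33 in DKO (adjusted p = 0.0081) and 1.33 ± 0.33 in WT (adjusted p = 0.0045). Misc exceeded SMP by 1.39 ± 0.44 in DKO (adjusted p = 0.014) and 1.91 ± 0.45 in WT (adjusted p = 0.0017). The DKO difference was 2.51 without SMP DKO replicate 2 (adjusted p = 0.0013) and 0.78 without replicate 1 (adjusted p = 0.19).

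Ccl7 had 98.4, 118, 100.4 and 129.6 CPM in the FAP DKO libraries, against 124, 156, 150.2 and 87.4 in those of FAP WT, which overlapped. Misc libraries held 33.7, 38.0, 29.8 and 29.8 CPM under DKO, against 47.8, 55.1, 53.7 and 51.2 under WT, with no overlap, and SMP libraries 6.59 and 21.8 CPM under DKO, against 11.9 and 6.66 under WT. The change in Misc was −0.66 ± 0.24 (adjusted p = 0.072), and −0.67 ± 0.15 in the fit of FAP and Misc libraries alone (adjusted p = 0.0021). It was −0.21 ± 0.23 in FAP (adjusted p = 0.62) and 0.58 ± 0.41 in SMP (adjusted p = 0.33), where it was 1.20 without DKO replicate 1 (adjusted p = 0.014) and −0.51 without DKO replicate 2 (adjusted p = 0.41). FAP exceeded Misc by 1.76 ± 0.25 in DKO (adjusted p = 2.6e-05) and 1.32 ± 0.24 in WT (adjusted p = 0.00026). Misc exceeded SMP by 1.23 ± 0.35 in DKO (adjusted p = 0.0062) and 2.48 ± 0.35 in WT (adjusted p = 1.2e-05). The DKO difference was 2.33 without SMP DKO replicate 2 (adjusted p = 1.9e-05) and 0.61 without replicate 1 (adjusted p = 0.1).

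Ccl11 had 587, 569.8, 527 and 683 CPM in the FAP DKO libraries, against 538, 663, 656 and 659 in those of FAP WT, which overlapped. For Misc the levels were 225, 202, 167 and 153 CPM under DKO, against 281, 409, 339.7 and 337 under WT, so that the highest DKO library lay below the lowest WT library. In SMP it had 31.1 and 101 CPM under DKO, against 30.9 and 38.0 under WT. Ccl11 fell 1.83-fold in Misc DKO (log2 −0.87 ± 0.24, adjusted p = 0.015), and this call held whichever of the 8 Misc libraries was left out (adjusted p = 0.015 to 0.044). In FAP the change was −0.09 ± 0.23 (95% interval −0.54 to 0.37, adjusted p = 0.86). In SMP it was 0.94 ± 0.35 (adjusted p = 0.061), 1.54 without DKO replicate 1 (adjusted p = 2e-05) and −0.16 without DKO replicate 2 (adjusted p = 0.7). FAP exceeded Misc 3.17-fold in DKO (1.66 ± 0.24, adjusted p = 2.8e-05) and 1.84-fold in WT (0.88 ± 0.23, adjusted p = 0.0063). Misc exceeded SMP 2.83-fold in DKO (adjusted p = 0.00055), 6.06-fold without SMP DKO replicate 2 (adjusted p = 2.6e-09) and 1.87-fold without replicate 1 (adjusted p = 0.0012).

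The levels of Ccl2 and Ccl7 moved together within groups. Over the 20 libraries, deviations of log2 CPM from the group means had a Pearson's r of 0.90 between Ccl2 and Ccl7, and 0.76 over the 16 libraries without SMP. Between Ccl2 and Ccl11 it was 0.57 and, without SMP, 0.22. Between Ccl7 and Ccl11 it was 0.71 and, without SMP, 0.41. Cxcl12 and Cxcl14 had an r of 0.80 over all libraries but −0.04 without SMP. Outside the CC cluster, the highest values without SMP were 0.79 between Cxcl5 and Ccl2, 0.77 between Cxcl5 and Csf1 and 0.73 between Il6 and Csf1. These values share libraries and scaling between the genes and are given as a description.

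**Figure D4:**
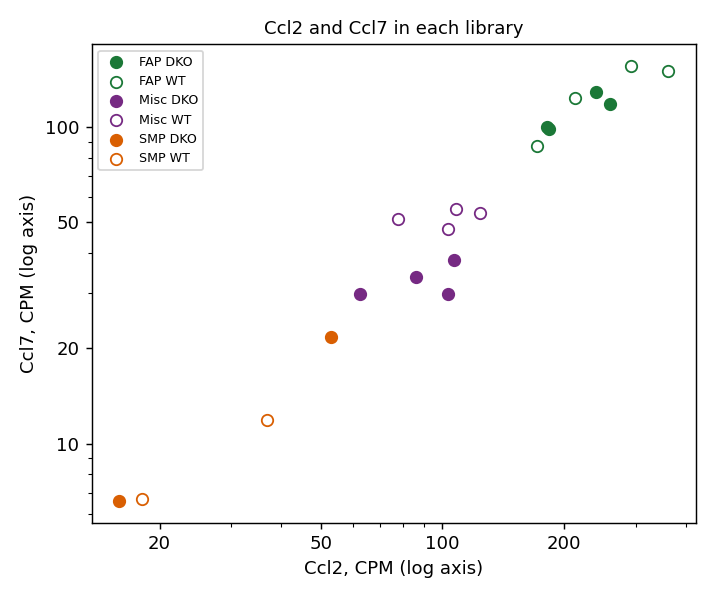
Ccl7 (vertical) against Ccl2 (horizontal) in each of the 20 libraries, both in CPM on log axes, filled for DKO and open for WT. The points run along 1 line from SMP (6.59 to 21.8 CPM of Ccl7) over Misc to FAP (87.4 to 156 CPM), and the 4 Misc DKO libraries (29.8 to 38.0 CPM) lie under the 4 Misc WT libraries (47.8 to 55.1 CPM).

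Il6, the founding cytokine of its family, was higher in every DKO library than in any WT library, within FAP and within Misc. Il6 (Entrez 16193; chromosome 5, 30013114 to 30019975), whose promoter held the kappaB, C/EBP and AP-1 matches shown above, had 670.5, 880.2, 843 and 979.8 CPM in the FAP DKO libraries, against 469, 608, 596 and 474 in those of FAP WT. In Misc it had 156, 274, 207 and 207 CPM under DKO, against 125, 150.2, 125 and 94.8 under WT. Its SMP levels were 52.2 and 171 CPM under DKO, against 71.3 and 79.3 under WT, on either side of WT. The difference was 1.57-fold in FAP (log2 0.65 ± 0.26, adjusted p = 0.13) and 1.70-fold in Misc (0.77 ± 0.27, adjusted p = 0.055), so neither passed in the fit of all groups. In the fit of FAP and Misc libraries alone both passed, at 0.67 ± 0.16 in FAP (adjusted p = 0.0074) and 0.76 ± 0.16 in Misc (adjusted p = 0.0018). The Misc difference also passed without Misc DKO replicate 1 (0.87, adjusted p = 0.043). In SMP it was 0.57 ± 0.38 (adjusted p = 0.3), 1.17 without DKO replicate 1 (adjusted p = 0.0037) and −0.54 without DKO replicate 2 (adjusted p = 0.22). FAP exceeded Misc 3.99-fold in DKO (2.00 ± 0.27, adjusted p = 2e-05) and 4.33-fold in WT (2.11 ± 0.27, adjusted p = 8.3e-06). Misc over SMP was 0.92 ± 0.34 in DKO (adjusted p = 0.028), which did not pass without SMP DKO replicate 1 (0.32, adjusted p = 0.31) or Misc DKO replicate 2 (0.77, adjusted p = 0.066) and was 2.03 without SMP DKO replicate 2 (adjusted p = 5.2e-06), and 0.72 ± 0.34 in WT (adjusted p = 0.075, and 0.042 without Misc WT replicate 4).

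Lif (Entrez 16878; chromosome 11, 4257568 to 4272514) encodes leukaemia inhibitory factor, which signals through the receptor encoded by Lifr together with the Il6st product. It had 37.9, 43.7, 39.7 and 35.3 CPM in the FAP DKO libraries, against 23.1, 20.5, 29.1 and 27.7 in those of FAP WT, with no overlap. Its Misc levels were 20.5, 32.2, 17.7 and 19.3 CPM under DKO, against 12.8, 13.2, 30.6 and 17.8 under WT, and those in SMP 12.3 and 19.0 CPM under DKO, against 15.5 and 8.94 under WT. The Misc groups overlapped, and Misc WT replicate 3 lay well above the other Misc WT libraries. The change was 0.64 ± 0.25 in FAP (1.55-fold, adjusted p = 0.13, and 0.087 in the fit of FAP and Misc libraries alone), 0.28 ± 0.27 in Misc (adjusted p = 0.51) and 0.34 ± 0.40 in SMP (adjusted p = 0.58, and −0.01 without DKO replicate 2). FAP exceeded Misc in DKO by 0.80 ± 0.26 (adjusted p = 0.028). Without FAP DKO replicate 2 or 3 or Misc DKO replicate 1, 3 or 4 its adjusted p was 0.067, 0.053, 0.067, 0.086 and 0.069, in that order, and with the replicate block it was 0.00037 at 0.84 ± 0.15. In WT the same difference was 0.45 ± 0.26 (adjusted p = 0.2), 0.80 without Misc WT replicate 3 (adjusted p = 0.0058) and 0.50 ± 0.16 with the block (adjusted p = 0.017). FAP exceeded SMP by 1.33 ± 0.35 in DKO (adjusted p = 0.0034) and 1.04 ± 0.34 in WT (adjusted p = 0.013), which did not pass without SMP DKO replicate 1 (1.06, adjusted p = 0.071, against 1.69 and 0.0081 without replicate 2) in DKO or SMP WT replicate 2 (0.70, adjusted p = 0.17) in WT.

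Csf1 (Entrez 12977; chromosome 3, 107741048 to 107760469, minus strand) encodes the growth factor on which macrophages depend, and it was the gene of the 10 called in SMP. It had 338, 432, 354 and 345 CPM in the FAP DKO libraries, against 323, 339, 341 and 309 in those of FAP WT, and in Misc 163, 235, 166 and 209.7 CPM under DKO, against 148, 170.2, 159 and 132 under WT. SMP libraries held 95.3 and 125 CPM under DKO, against 70.1 and 59.2 under WT. Both SMP DKO libraries lay above both WT libraries, while the groups overlapped in FAP and Misc. The rise in SMP was 1.70-fold (log2 0.77 ± 0.18, adjusted p = 0.0036). It was 0.55 without SMP DKO replicate 2 (adjusted p = 0.063) and 0.63 without SMP WT replicate 2 (adjusted p = 0.057). In FAP the change was 0.16 ± 0.12 (adjusted p = 0.44). In Misc it was 0.34 ± 0.12 (adjusted p = 0.052), and it passed without Misc DKO replicate 1 (0.40, adjusted p = 0.032) or 3 (0.41, adjusted p = 0.031) and in the fit of FAP and Misc libraries alone (0.33 ± 0.12, adjusted p = 0.04). FAP exceeded Misc by 0.92 ± 0.12 in DKO (adjusted p = 1.6e-06) and 1.10 ± 0.12 in WT (adjusted p = 7.7e-08). Misc exceeded SMP by 0.81 ± 0.16 in DKO (adjusted p = 1e-04) and 1.24 ± 0.16 in WT (adjusted p = 4.3e-07), and by 1.04 in DKO without SMP DKO replicate 2 (adjusted p = 9.1e-05).

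Whether the effect of DKO differed between populations was tested with interaction terms. Between FAP and Misc, 0 of the 10 genes passed in the fits of all groups by edgeR or DESeq2. Of all 14179 genes, 2.79% passed in edgeR and 551 genes in DESeq2. In edgeR 1 of the 10 had an unadjusted p below 0.05 (Ccl11, 0.78 ± 0.33, adjusted p = 0.3). The share of all genes at that unadjusted threshold was not computed for any interaction. In the edgeR fit of the 16 FAP and Misc libraries alone, 2 of the 10 passed, where 4.49% of all genes did. They were Ccl11 (0.81 ± 0.18, adjusted p = 0.0077) and Cxcl12 (0.49 ± 0.11, adjusted p = 0.013), both with the lower DKO effect in Misc. Between FAP and SMP, 0 of 10 passed in edgeR, where 10.3% of all genes did, and 3 had an unadjusted p below 0.05. In DESeq2, 3 of the 10 passed, where 1784 of 14179 genes did. Between Misc and SMP, Cxcl14 (−2.13 ± 0.59, adjusted p = 0.037) and Ccl11 (−1.81 ± 0.42, adjusted p = 0.012) had lower DKO effects in Misc, where 8.94% of all genes passed and 4.34% were lower. Without SMP DKO replicate 2 these were −0.53 (adjusted p = 0.5) and −0.72 (adjusted p = 0.11). Ccl11 also did not pass without SMP WT replicate 1 (adjusted p = 0.069), and Cxcl14 passed in 4 of the 12 fits that left out 1 library. For Cxcl14 the interaction of FAP and Misc did not pass in either fit (0.53 ± 0.46, adjusted p = 0.73 with all groups, and 0.55 ± 0.24, adjusted p = 0.26 with FAP and Misc alone), and for Ccl11 the call depended on the fit.

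Levels can be compared between genes per kb of transcript. In FAP DKO, Cxcl1 stood highest at 1291 ± 177 CPM per kb (SD, n = 4), followed by Il6 at 739 ± 113, Ccl11 at 547 ± 60.8, Cxcl14 at 353 ± 90.7 and Ccl2 at 266 ± 49.5. The remaining order there was Ccl7 at 139 ± 18.6 CPM per kb, Csf1 at 88.0 ± 10.5, Cxcl12 at 49.2 ± 1.22, Cxcl5 at 13.6 ± 7.84 and Lif at 9.72 ± 0.882, the last pair overlapping within their spread, as did Cxcl14 and Ccl2. In FAP WT the order after Cxcl1 (1244 ± 209.5 CPM per kb) was Ccl11 (581 ± 56.1), Cxcl14 (536 ± 70.6) and Il6 (470.1 ± 66.2), neighbours that overlapped in spread. In Misc DKO, Cxcl1 (342 ± 88.2 CPM per kb) and Cxcl14 (336 ± 84.3) overlapped in spread, as did Il6 (185 ± 42.5) and Ccl11 (173 ± 30.2). In Misc WT, Cxcl14 led at 734 ± 94.7 CPM per kb, above Cxcl1 at 421 ± 75.3 and Ccl11 at 316 ± 48.3. In SMP WT, Cxcl1 led at 297 ± 138 CPM per kb (n = 2), above Il6 at 66.0 ± 5.01. For genes with several transcripts these levels depend on the length taken, most of all for Cxcl12, whose transcripts ran from 1878 to 5627 bases.

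Genes of the same pathways were read from lists by function. Their called counts in DKO are to be read beside the shares of all genes tested that passed. These were 10.7% in FAP, 18.7% in Misc and 23.0% in SMP. Among the other chemokines, 14 of 30 passed the filter on low counts. Of these, 2 were higher in FAP DKO (median log2 change 0.20), and 1 was higher and 2 were lower in Misc DKO (median 0.26). In SMP DKO 5 were higher and 2 lower (median 0.78), but 0 higher and 1 lower of 15 without DKO replicate 2 (median −0.46).

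Cx3cl1, which encodes fractalkine, a membrane-tethered chemokine for CX3CR1, rose in both FAP and Misc. It had 24.3, 33.7, 35.3 and 33.4 CPM in the FAP DKO libraries, against 9.03, 7.19, 7.51 and 5.81 in those of FAP WT (2.09 ± 0.17, adjusted p = 8.8e-09). Misc libraries held 25.8, 32.1, 32.0 and 34.1 CPM under DKO, against 8.72, 8.91, 9.02 and 8.63 under WT (1.81 ± 0.16, adjusted p = 4.1e-08), so that in both populations the genotypes lay far apart. For SMP the levels were 18.6 and 32.4 CPM under DKO, against 14.1 and 10.9 under WT (1.02 ± 0.23, adjusted p = 0.0028, and 0.56 with adjusted p = 0.12 without DKO replicate 2). Cxcl16, which encodes the ligand of CXCR6, had 24.5, 28.0, 26.9 and 31.7 CPM in the FAP DKO libraries, against 17.0, 17.1, 17.9 and 18.2 in those of FAP WT (0.66 ± 0.17, adjusted p = 0.01). Ccl19, which encodes a ligand of CCR7, fell to 0.996, 0.479, 1.56 and 1.29 CPM in the Misc DKO libraries, against 5.19, 4.65, 3.82 and 2.04 in those of Misc WT (−1.88 ± 0.33, adjusted p = 0.00025). Cxcl10, an interferon-induced ligand of CXCR3, had 21.0, 15.1, 15.2 and 15.0 CPM in the Misc DKO libraries, against 21.2, 40.1, 26.4 and 28.9 in those of Misc WT (−0.81 ± 0.25, adjusted p = 0.031). That call held in 3 of the 8 fits that left out 1 Misc library (adjusted p = 0.016 to 0.095).

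In SMP, 3 of the called chemokines had their counts mainly in DKO replicate 2. Ccl6 had 0.395 and 18.5 CPM in SMP DKO and Ccl9 had 0 and 13.6 CPM, against no count of either in SMP WT, and Ccl8 had 0.527 and 1.78 CPM in the SMP DKO libraries, against 0.162 and 0 in those of SMP WT. Without that library their adjusted p was 0.36 for Ccl6, 1.0 for Ccl9 and 0.22 for Ccl8. Both called falls were alike in the 2 DKO libraries. For Ccl28 that likeness is 1 count in each SMP DKO library, against 12 in each SMP WT library. Ccl28 had 0.132 and 0.148 CPM in SMP DKO against 0.973 and 1.05 in SMP WT, with a log2 change of −2.75, and −2.84 without DKO replicate 2 (adjusted p = 0.098). Ccl19 had 5.53 and 6.67 CPM in SMP DKO against 13.5 and 11.0 in SMP WT (−1.01 ± 0.36, adjusted p = 0.043), and −1.16 without DKO replicate 2 (adjusted p = 0.08). Neither fall passed in any of the 4 fits that left out 1 SMP library (adjusted p = 0.059 to 0.11 for Ccl28 and 0.06 to 0.18 for Ccl19).

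Among chemokine receptors, 9 of 23 passed the filter. Of these, 1 was higher and 2 were lower in FAP DKO (median 0.34), and 1 was lower in Misc DKO (median −0.29). In SMP DKO 3 were higher and 1 lower (median 0.60), or 1 each way without DKO replicate 2. Ackr3, which encodes a scavenging receptor for CXCL12, fell in all 3 populations. It had 526, 472, 508 and 495 CPM in the FAP DKO libraries, against 807, 859.8, 889.6 and 756 in those of FAP WT (−0.73 ± 0.10, adjusted p = 5.4e-05). For Misc the levels were 99.8, 91.1, 122 and 115 CPM under DKO, against 158, 171, 154 and 149 under WT (−0.56 ± 0.11, adjusted p = 5e-04). In SMP it had 167 and 227 CPM under DKO, against 269 and 267 under WT (−0.44 ± 0.15, adjusted p = 0.034), a call that held without SMP DKO replicate 2 and not without DKO replicate 1 (−0.26, adjusted p = 0.29), WT replicate 1 (−0.44, adjusted p = 0.11) or WT replicate 2 (−0.47, adjusted p = 0.085). Groups did not overlap in any population.

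Ackr2, which encodes a scavenger of inflammatory CC chemokines, fell to 27.8, 20.5, 34.5 and 21.2 CPM in the FAP DKO libraries, against 52.1, 51.5, 53.5 and 52.8 in those of FAP WT (−1.01 ± 0.18, adjusted p = 0.00063). At a far lower level it was higher in SMP DKO, at 3.29 and 4.15 CPM against 0.324 and 0.526 in SMP WT (3.10 ± 0.54, adjusted p = 0.00034), with and without DKO replicate 2. Cxcr4, the signalling receptor for CXCL12, was called in FAP at 3.92, 3.60, 3.49 and 3.63 CPM under DKO, against 2.90, 1.52, 1.59 and 1.24 under WT (0.98 ± 0.29, adjusted p = 0.033), a call that held in 1 of the 8 fits that left out 1 FAP library (adjusted p = 0.0075 to 0.098). It was most abundant in SMP, at 179 and 169.6 CPM under DKO, against 193 and 226 under WT. The leukocyte receptor gene Cx3cr1 and the endothelial marker Ackr1 followed SMP DKO replicate 2. Cx3cr1 had 0 and 2.37 CPM in SMP DKO against no count in SMP WT. Ackr1 had 1.71 and 35.9 CPM in the SMP DKO libraries, against 2.51 and 0.351 in those of SMP WT. However, Ackr1 was also at 25.8 to 39.8 CPM over the FAP libraries, so it is not particular to endothelium here.

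Among the other IL-6 family ligands, Clcf1 and Ctf1 are described. Clcf1, which encodes a ligand of the receptor subunit encoded by Cntfr, was called in FAP (0.65 ± 0.20, adjusted p = 0.038) and Misc (0.51 ± 0.18, adjusted p = 0.045), with 1 of 8 and 2 of 8 calls held as single libraries were left out (adjusted p = 0.0051 to 0.18 in FAP and 0.018 to 0.16 in Misc). Its levels were 2.80 to 5.81 CPM in the FAP DKO libraries, against 2.57 to 3.14 in those of FAP WT, and 6.10 to 8.86 CPM in the Misc DKO libraries, against 4.57 to 6.74 in those of Misc WT. Ctf1, which encodes a cardiotrophin, had 1.20 to 1.49 CPM in the Misc DKO libraries, against 1.55 to 3.31 in those of Misc WT (−1.08 ± 0.37, adjusted p = 0.042, held in 1 of 8 such fits with adjusted p = 0.02 to 0.11), and 1.58 and 1.04 CPM in the SMP DKO libraries, against 2.51 and 4.82 in those of SMP WT (−1.46 ± 0.52, adjusted p = 0.046, and 0.2 without DKO replicate 2).

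The receptors of the family were tested with their kinases as 14 genes, all of which passed the filter. In FAP DKO 2 were lower (median 0.05), in Misc DKO 4 were lower (median −0.08), and in SMP DKO 2 were higher (median −0.09), or 1 each way without DKO replicate 2. Lifr, the LIF receptor, had 77.8, 81.3, 99.0 and 86.7 CPM in the FAP DKO libraries, against 118, 116, 128 and 151 in those of FAP WT (−0.57 ± 0.10, adjusted p = 0.00033). Its Misc levels were 86.4, 91.6, 82.6 and 83.4 CPM under DKO, against 148, 141, 167 and 136 under WT (−0.78 ± 0.10, adjusted p = 3.4e-06). The genotypes lay apart in both populations, with Lif at higher and Lifr at lower levels in every FAP DKO library than in any FAP WT library. Cntfr had 11.0, 11.9, 19.4 and 12.0 CPM in the FAP DKO libraries, against 29.0, 25.8, 27.3 and 22.7 in those of FAP WT (−0.94 ± 0.20, adjusted p = 0.0037). Misc libraries held 77.3, 62.1, 67.8 and 95.7 CPM under DKO, against 130.3, 93.4, 151 and 117 under WT (−0.70 ± 0.17, adjusted p = 0.0074), where the highest DKO library passed the lowest WT library. Il11ra1, the IL-11 receptor, had 333, 230.0, 230.3 and 258 CPM in the Misc DKO libraries, against 409.9, 374, 413 and 384 in those of Misc WT (−0.59 ± 0.13, adjusted p = 0.0022). Il6st, the shared subunit, was called in Misc at −0.26 ± 0.09 (adjusted p = 0.046), which held in 2 of 8 fits that left out 1 library (adjusted p = 0.029 to 0.13). Il6ra, which encodes the subunit that binds IL-6, had 9.36 and 15.1 CPM in the SMP DKO libraries, against 3.65 and 3.33 in those of SMP WT (1.80 ± 0.33, adjusted p = 0.00054), and passed whichever SMP library was left out (adjusted p = 0.00025 to 0.015). Il27ra was called there at 1.05 and 1.93 CPM under DKO, against 0.162 and 0.438 under WT (2.27 ± 0.63, adjusted p = 0.013, and 0.13 without DKO replicate 2).

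**Figure D5:**
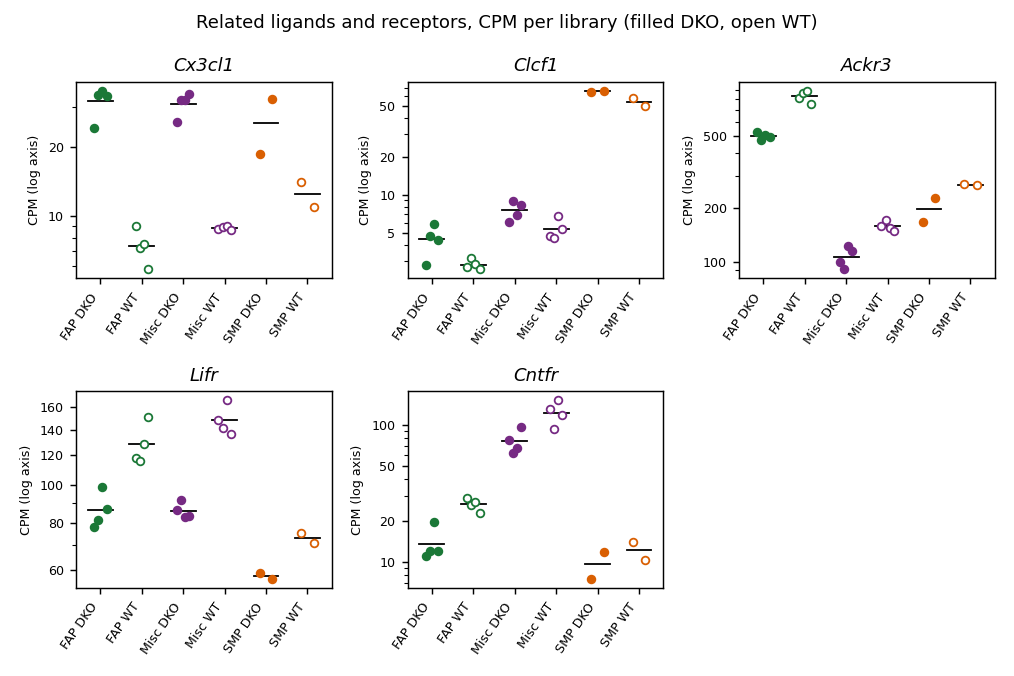
Levels of 5 related ligands and receptors in each library, in CPM on a log axis, with groups along the horizontal axis, DKO filled, WT open and bars for group means. The means of Cx3cl1 lie higher and those of Ackr3, Lifr and Cntfr lower in DKO in FAP and Misc, with Cx3cl1 at 24.3 to 35.3 CPM in FAP DKO against 5.81 to 9.03 in FAP WT.

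Genes known to act downstream of these signals were called in numbers to be read beside the 10.7% of all genes tested that passed in FAP, 18.7% in Misc and 23.0% in SMP. Of 12 known STAT3 targets, 1 was higher in FAP DKO (median 0.04), 1 higher and 1 lower in Misc DKO (median −0.11), and 1 higher in SMP DKO (median −0.03), or 1 higher and 3 lower without DKO replicate 2. Tnfrsf12a, the TWEAK receptor, was the higher gene in each. It had 123, 208, 138 and 144 CPM in the FAP DKO libraries, against 72.9, 81.3, 107 and 79.9 in those of FAP WT (0.84 ± 0.17, adjusted p = 0.0031). For Misc the levels were 122, 155, 119 and 176 CPM under DKO, against 77.2, 86.6, 118 and 81.5 under WT (0.66 ± 0.17, adjusted p = 0.011, and 0.057 without DKO replicate 4 and 0.055 without WT replicate 1). SMP libraries held 343 and 281 CPM under DKO, against 189.7 and 168 under WT (0.80 ± 0.24, adjusted p = 0.023), which held in 1 of 4 fits that left out 1 SMP library (adjusted p = 0.039 to 0.14). Socs3, the feedback inhibitor of IL-6 signalling, had 833, 697, 703 and 918 CPM in the Misc DKO libraries, against 1076, 1095, 1025 and 1010.5 in those of Misc WT (−0.42 ± 0.14, adjusted p = 0.042, held in 2 of 8 such fits with adjusted p = 0.024 to 0.12). In FAP, where Il6 was higher in all DKO libraries, Socs3 had 644, 901, 1006 and 855 CPM under DKO, against 999.8, 976, 894 and 830.4 under WT, which overlapped.

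Of 19 genes of NF-kB feedback and its targets, 1 was lower in FAP DKO (median 0.19), 2 were higher and 2 lower in Misc DKO (median 0.05), and 2 higher and 3 lower in SMP DKO (median 0.09), or 1 higher and 5 lower without DKO replicate 2. Nfkbiz, an inducible nuclear cofactor of NF-kB, had 325, 394, 369.8 and 387 CPM in the FAP DKO libraries, against 532, 529.7, 477 and 490.3 in those of FAP WT (−0.46 ± 0.12, adjusted p = 0.014). In Misc it had 192, 213, 174 and 192 CPM under DKO, against 266, 309, 280.2 and 268 under WT (−0.54 ± 0.12, adjusted p = 0.0026). Groups lay apart in both. Tnfaip3, which encodes an inhibitor of NF-kB signalling, had 86.1, 93.2, 84.8 and 107 CPM in the Misc DKO libraries, against 139, 158, 146 and 114 in those of Misc WT (−0.59 ± 0.15, adjusted p = 0.0091). Tnfaip2, named for its induction by TNF, had 45.9, 65.4, 60.0 and 53.1 CPM in the Misc DKO libraries, against 21.3, 33.3, 28.8 and 21.9 in those of Misc WT (1.09 ± 0.17, adjusted p = 0.00015). For SMP the levels were 72.3 and 111 CPM under DKO, against 9.97 and 6.93 under WT (3.43 ± 0.27, adjusted p = 1.1e-07), with adjusted p of 7.8e-09 to 1.8e-05 as single SMP libraries were left out. Vcam1, an adhesion molecule for leukocytes, was called in Misc at 0.41 ± 0.13 (adjusted p = 0.034), held in 2 of 8 fits that left out 1 library (adjusted p = 0.022 to 0.17). In SMP, Birc3 (−1.06 ± 0.30, adjusted p = 0.02), Nfkbie (−0.97 ± 0.22, adjusted p = 0.0031) and Tnf (2.05 ± 0.56, adjusted p = 0.012) were called. Each had an alternative fit with 1 SMP library left out in which it did not pass: Birc3 without WT replicate 1 (0.29) or DKO replicate 1 (0.15), Nfkbie without WT replicate 1 (0.13), and Tnf without DKO replicate 2 (0.34) or WT replicate 2 (0.11).

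For the other growth factors and receptors of the Csf1 list, 5 of 7 passed the filter. In FAP and Misc DKO the 5 did not pass the test, with median log2 changes of 0.32 and 0.12. In SMP DKO 1 was higher and 1 lower (median 1.07), but none of 6 passed without DKO replicate 2 (median −0.92). Csf1r, the receptor of CSF1 and a macrophage marker, had 0.132 and 39.0 CPM in the SMP DKO libraries, against 0.649 and 0.0877 in those of SMP WT (5.64 ± 1.76, adjusted p = 0.033, and −1.44 with adjusted p = 0.8 without DKO replicate 2). Il34, the alternative ligand of CSF1R, had 4.22 and 4.30 CPM in the SMP DKO libraries, against 8.84 and 6.49 in those of SMP WT (−0.85 ± 0.27, adjusted p = 0.028). Its DKO libraries were alike, and the change was −0.87 without DKO replicate 2 (adjusted p = 0.092), −0.85 without DKO replicate 1 (adjusted p = 0.098) and −0.61 without WT replicate 1 (adjusted p = 0.21).

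The genes whose levels ran most like each of the 10 over the 20 libraries were found by Pearson's r of log2 CPM among 10226 genes. They were Tnfsf9 (0.973) for Cxcl1, Tfpi2 (0.891) and Ldha (0.867) for Cxcl5, Osr1 and Fst (0.988 each) for Cxcl12, and Htra1 and Ifi30 (0.991 each) for Cxcl14. For the CC chemokines they were Pnp (0.978) and AI607873 (0.963) for Ccl2, Nov (0.982) and Fst (0.981) for Ccl7, and Sult5a1 (0.995) and Ptges (0.987) for Ccl11. They were Mmp19 (0.990) and Atp8b1 (0.978) for Il6, Tle1 (0.908) and Gla (0.892) for Lif, and Fgl2 (0.985) and Metrnl (0.977) for Csf1. The libraries fall into 3 populations, so these values describe mainly the order of the populations.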

How the data were processed

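RNA sequencing counts of 20 libraries were analysed. The deposited values are unnormalized counts for each gene (exon counts, by the file's name). DESeq2 is named in the submitters' processing notes, and the design text gives the OSA algorithm, mm10 and RefSeq annotation for read mapping. The counting tool and its strand setting were not stated, so reads of overlapping antisense genes cannot be told apart. Of 24393 genes by Entrez identifier, 24312 matched the RefSeq table of GRCm38.p6, and 52 damaged symbols were restored from identifiers. Library totals ran from 5826000 to 17730111 counts, and no 2 libraries of a group were alike within counting noise (lowest chi-square per degree of freedom 8.95).

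edgeR 4.0.16 in R 4.3.3 filtered genes by group (filterByExpr, minimum count 10, minimum total 15), which left 14179, scaled them by TMM and fitted 1 robust quasi-likelihood model to all 6 groups without a block. All 12 comparisons are contrasts of it, adjusted by Benjamini-Hochberg over 14179 genes and called at an adjusted p below 0.05. The procedure was tested on simulated data. Each SE is the absolute log2 change over the square root of F, and a 95% interval takes it on the normal scale. Levels per kb use the longest GENCODE M21 transcript paired with a RefSeq mRNA. The alternatives were DESeq2 1.42.0 (size factors and Wald test), no filter, a threshold of 0.01, the compared groups alone, a replicate block, each library left out and, chosen after seeing the data, the 16 FAP and Misc libraries alone.

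The genes and lists were chosen with earlier results of these data known. All 10 genes are named. From each related list up to 4 called genes with the largest log2 change per comparison of DKO with WT are named, and for each gene the 2 most correlated genes among 10226 with a mean of at least 5 CPM. Cx3cl1 and Ccl19 in SMP and the single marker genes are named outside this rule, after their values were seen. Of the genes this rule names, 2 are not reported here.

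FAP and Misc libraries of the same replicate number deviated together from their group means across genes. Their r was 0.18 to 0.34 in DKO and 0.18 to 0.23 in WT, against −0.18 to 0.06 for other numbers. Only the alternative fit with the replicate block therefore treated FAP and Misc as paired by number. The main fit had no block, so its comparisons of FAP with Misc are unpaired. The pairing rests on the check alone, since no label states it. DKO and WT libraries of the same number did not as a set (−0.06 to 0.29 in FAP, −0.16 to 0.03 in Misc). The exception was replicate 1 in FAP, with an r of 0.29 against −0.21 to 0.16 for other numbers. The design text calls the replicates biological without naming animals, so p-values measure the spread between these samples, which may in part be technical.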

Additional observations from a re-analysis of the deposited data

Results flagged for a closer look

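In 40 groups of 4 libraries, 2 had a library whose gap to the nearest of the others exceeded Dixon's 95% critical value, where chance gives about 1 in 20 groups. Ccl11 in FAP WT was lowest in replicate 1, at 538 CPM, below the other 3 FAP WT libraries at 656 to 663. Csf1 in FAP DKO was highest in replicate 2, at 432 CPM, above the other 3 FAP DKO libraries at 338 to 354.

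The effect of DKO differed between Misc and SMP by the interaction test for Cxcl14 (−2.13 ± 0.59 on the log2 scale, adjusted p = 0.037) and Ccl11 (−1.81 ± 0.42, adjusted p = 0.012). Both differences rested on SMP DKO replicate 2, without which they were −0.53 (adjusted p = 0.5) and −0.72 (adjusted p = 0.11).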

How the results depend on the processing

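Of the values of single genes under the alternatives, 1754 kept direction and side of the threshold, 204 lost the call, 52 gained it and 16 changed sign, each of these with 1 library left out. Counts of the 10 genes called moved as follows. At an adjusted p below 0.01 they were 0 in FAP DKO, 0 in Misc DKO and 0 for the interaction of Misc and SMP. Of all 14179 genes tested, 737, 1473 and 526 were called there. Without a filter the counts were 0 in FAP DKO and 1 for that interaction, with 1381 and 1103 of 19362 genes called. The DESeq2 Wald test called 5 in Misc DKO, 2 in SMP DKO, 3 for the FAP and SMP interaction and 4 for that of Misc and SMP. Of all 14179 genes tested it called 2845, 3347, 1784 and 1543, in that order. With only the compared groups in the fit, 3 of the 10 were called in FAP DKO (2214 of 12466 genes tested) and 5 in Misc DKO (2495 of 12353). Misc against SMP in DKO had 4 (6940 of 13095). The FAP and Misc interaction had 2 (590 of 13133) and that of Misc and SMP 0 (800 of 13716). With the FAP and Misc libraries alone, an alternative chosen after seeing the data, 3 of the 10 were called in FAP DKO and 6 in Misc DKO. Of all 13133 genes tested there, 1915 and 3011 were called. The cause was not tested.

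With the replicate block, 2 passed in FAP DKO and 4 in Misc DKO, with Il6 at an adjusted p of 0.039 in FAP and 0.015 in Misc and Csf1 at 0.038 in Misc, and 1 passed in each interaction with SMP. Across genotypes the numbers were shared without evidence of pairing beyond replicate 1 in FAP.

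Single libraries were left out only from the groups compared, so the comparisons of DKO with WT in FAP and in Misc kept all SMP libraries. Of 14129 to 14179 genes tested in these fits, 932 to 1696 were called in FAP DKO and 2002 to 2560 in Misc DKO. Counts of the 10 genes ran from 0 to 1 in FAP DKO and 1 to 4 in Misc DKO. In DKO they ran from 7 to 9 for FAP against Misc, 8 to 10 for FAP against SMP and 3 to 8 for Misc against SMP. In WT they ran from 7 to 8, 8 to 9 and 6 to 7. For the interactions they ran from 0 to 0 between FAP and Misc, 0 to 5 between FAP and SMP and 0 to 4 between Misc and SMP. Log2 changes that changed sign ran from −0.04 to 0.15 for Cxcl1 in FAP, −0.11 to 0.26 for Cxcl14 in FAP against Misc DKO and −1.63 to 0.07 for Ccl11 between FAP and SMP. In SMP they ran from −0.78 to 0.34 for Cxcl1, −0.52 to 1.15 for Cxcl12, −0.60 to 1.73 for Cxcl14, −0.80 to 0.93 for Ccl2, −0.51 to 1.20 for Ccl7, −0.16 to 1.54 for Ccl11, −0.54 to 1.17 for Il6, −0.02 to 0.79 for Lif and −1.44 to 7.59 for Csf1r.

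Of all genes, 3257 were called in SMP DKO, but 924 with only the compared groups, 1821 without SMP WT replicate 1 and 1477 at 0.01. In FAP DKO 1520 were called, but 932 without FAP DKO replicate 2, 997 without FAP WT replicate 1 and 737 at 0.01. In Misc DKO 1473 were called at 0.01. With 2 libraries a group and 5826000 to 6124928 counts in SMP DKO, SMP gives the least precise values, and genes near 1 CPM rest on few counts.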
